A study of Mus musculus with 6 samples.

Results

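The 13 protein genes of the mitochondrial genome are described here, chosen as every row whose gene name begins with mt-, out of 34745 genes counted. The mouse annotation places 37 genes on this genome, 13 coding, 2 for rRNAs and 22 for tRNAs. None of the 24 rRNA and tRNA genes was among the rows beginning with mt-, so they were not analysed here. The measurements come from 6 RNA sequencing libraries of P19, a mouse embryonal carcinoma line. There were 3 libraries of untreated control cells and 3 of cells given the peptide PDTLN1, and the labels state no dose or duration. Both groups are the same line in the same serum-containing medium, and no label ties a library to a separate culture, so the spread between libraries may be technical.

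The mitochondrial genome is a small circle that is copied into RNA along nearly its whole length from both strands. The long precursors are cut at the tRNAs, which lie between most of the other genes, and most of the freed mRNAs receive short poly(A) tails. The proteins are membrane subunits of the respiratory chain: the Nd genes encode subunits of complex I (NADH dehydrogenase), Cytb one of complex III, the Co genes subunits of complex IV (cytochrome c oxidase) and the Atp genes subunits of complex V (ATP synthase). All other subunits, and the enzymes that transcribe, cut and translate these RNAs, are encoded in the nucleus.

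The libraries held 10381307 to 11663081 gene counts. The 8 pluripotency markers summed to 2931 to 3051 CPM (counts scaled to a common library size by TMM) in controls and 2821 to 2962 after PDTLN1. Pou5f1 (1259 to 1502 CPM) and Lin28a (866 to 953 CPM) made up most of this sum. Dppa5a and Zfp42 of the same list were nearly absent, at no more than 0.375 and 0.484 CPM in any library. The labels' extraction text speaks of retina, but 10 retinal markers summed to at most 1.82 CPM in any library, with Crx, Arr3 and Opn1sw at 0 counts. The 8 blood markers summed to 17.1 to 19.4 CPM over all libraries, with Cd3e at 0. The 6 fibroblast markers summed to 75.4 to 76.8 CPM in controls and 57.1 to 67.3 after PDTLN1. Col1a1 was the largest part of this sum, at 31.8 to 43.7 CPM, and Lum was at 0 in PDTLN1 1 and 2. The part of such cells in the values below was not tested. On the first principal component of 13813 nuclear genes (35.3% of the variance), control 1 and PDTLN1 2 and 3 lay at -16.9, -23.3 and -11.4. Control 2, control 3 and PDTLN1 1 lay at 12.8, 20.1 and 18.8, so each group has libraries on both sides.

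Several of these genes overlap, and the overlaps bear on how reads can be counted. The stretches below are from the GRCm38 transcripts of GENCODE M21, written 5′ to 3′, with the shared bases in capitals. In mt-Atp8 (bases 7766 to 7969, plus strand) the last 43 bases are also the first of mt-Atp6, since both proteins are read from 1 mRNA in different frames. In mt-Nd4l (9877 to 10173, plus strand) the last 7 bases are the first of mt-Nd4, its partner on another shared mRNA. The ends of mt-Nd5 (13506 to 13565, plus strand) and mt-Nd6 (13552 to 13611, minus strand) pair over 14 bases. mt-Nd6 was the 1 coding gene on the minus strand, and the other 12 were on the plus strand. Whether strand was used in counting is not given in the sources used here, so reads of mt-Nd6 and of RNA from the opposite strand cannot be told apart.
mt-Atp8: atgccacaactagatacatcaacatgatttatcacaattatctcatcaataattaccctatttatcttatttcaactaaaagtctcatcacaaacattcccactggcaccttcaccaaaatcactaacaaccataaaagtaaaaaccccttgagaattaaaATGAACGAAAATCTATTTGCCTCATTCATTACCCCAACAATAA
mt-Nd4l: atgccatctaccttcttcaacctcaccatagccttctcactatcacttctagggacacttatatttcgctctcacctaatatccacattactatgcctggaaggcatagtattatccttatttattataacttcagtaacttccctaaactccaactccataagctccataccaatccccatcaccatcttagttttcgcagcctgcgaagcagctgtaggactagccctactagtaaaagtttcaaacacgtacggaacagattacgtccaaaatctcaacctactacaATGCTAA
mt-Nd5 end: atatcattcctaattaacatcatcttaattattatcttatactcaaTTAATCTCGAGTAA
mt-Nd6 end: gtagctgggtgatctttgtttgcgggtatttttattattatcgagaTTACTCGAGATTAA

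For mt-Co3, mt-Nd4 and mt-Cytb the annotated length left 1 base over after whole codons. In such genes the stop codon is completed by the poly(A) tail, so the ends below show where the tail does part of the coding. The last base is in capitals, and the stretches are bases 9360 to 9390, 11514 to 11544 and 15258 to 15288 of the plus strand. The next gene along the genome is a tRNA in each case (mt-Tg, mt-Th and mt-Tt), which is where the precursor is cut.
mt-Co3 end: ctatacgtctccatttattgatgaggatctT
mt-Nd4 end: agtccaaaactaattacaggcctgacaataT
mt-Cytb end: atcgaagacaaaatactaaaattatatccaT

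The nucleus also carries copies of parts of this genome. A block of 4663 bases on chromosome 1 (24611535 to 24616197, GRCm38) holds 7 annotated pseudogenes. Over the aligned stretch 5 of them were identical to their mitochondrial gene: Gm10925 to mt-Atp6 over 678 bases, Gm28661 to mt-Co2 over 681, Gm28437 to mt-Co3 over 783, Gm28439 to mt-Nd4 over 876 and Gm10222 to mt-Nd4l over 294. Gm28438 differed from mt-Nd3 at 1 of 345 bases, T3C, counted from the first base of mt-Nd3, which lies in its start codon. The first 23 bases of both show how little separates them, with the differing base in capitals (mt-Nd3 at 9459 to 9481, Gm28438 on chromosome 1 at 24613097 to 24613119, minus strand). Gm29216 differed from mt-Co1 at 1 of 483 bases. Counts of these 7 genes and their copies are therefore uncertain. Only annotated transcripts were searched, so stretches of the block between the pseudogenes were not compared. mt-Atp8 lies between mt-Co2 and mt-Atp6, whose copies leave such a stretch between 24614651 and 24614885. Whether the block holds a copy of mt-Atp8 was not tested, so its counts may be uncertain too. Values below are without the copies unless stated, and the coding share and some fold changes are also given with them.
mt-Nd3: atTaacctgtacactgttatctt
Gm28438: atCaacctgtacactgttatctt

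Levels per length spanned 65.8-fold between the most and the least abundant gene. In deposited FPKM (counts scaled for gene length and library depth), means over the 6 libraries were 10136 ± 492 for mt-Atp8 and 9200.4 ± 606 for mt-Co1 (SD, n = 6 each). Then came mt-Co2 at 5502 ± 567, mt-Atp6 at 4285 ± 253, mt-Nd1 at 2845 ± 497, mt-Co3 at 2628 ± 198 and mt-Cytb at 2347 ± 554 FPKM. Complex I supplied most of the lower end: mt-Nd4l averaged 1704, mt-Nd2 1546, mt-Nd4 1513, mt-Nd5 1167, mt-Nd3 525 and mt-Nd6 154 FPKM. The gene lengths behind the FPKM were the full annotated ones, 204 bases for mt-Atp8 and 1545 for mt-Co1.

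The order, worked out without the nuclear copies, was firm only in part. Of the 12 neighbouring pairs in it, 6 had ranges over the libraries that did not touch: mt-Co1 over mt-Co2, mt-Co2 over mt-Atp6, mt-Atp6 over mt-Nd1, mt-Nd4 over mt-Nd5, mt-Nd5 over mt-Nd3 and mt-Nd3 over mt-Nd6. mt-Atp8 exceeded mt-Co1 in 5 of 6 libraries, with ratios of 0.979 to 1.18, so the top place was not separated from the next. mt-Nd1 exceeded mt-Co3 in 3 of 6 libraries, mt-Co3 exceeded mt-Cytb in 4, and mt-Nd2 exceeded mt-Nd4 in 3. Genes on a shared mRNA did not have equal levels: mt-Atp8 stood at 2.26 to 2.61 times the FPKM of mt-Atp6, and mt-Nd4l at 1.27 to 1.41 times that of mt-Nd4 in every library but control 2. The part of gene length and of nuclear copies in these ratios was not tested.

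**Figure D1:**
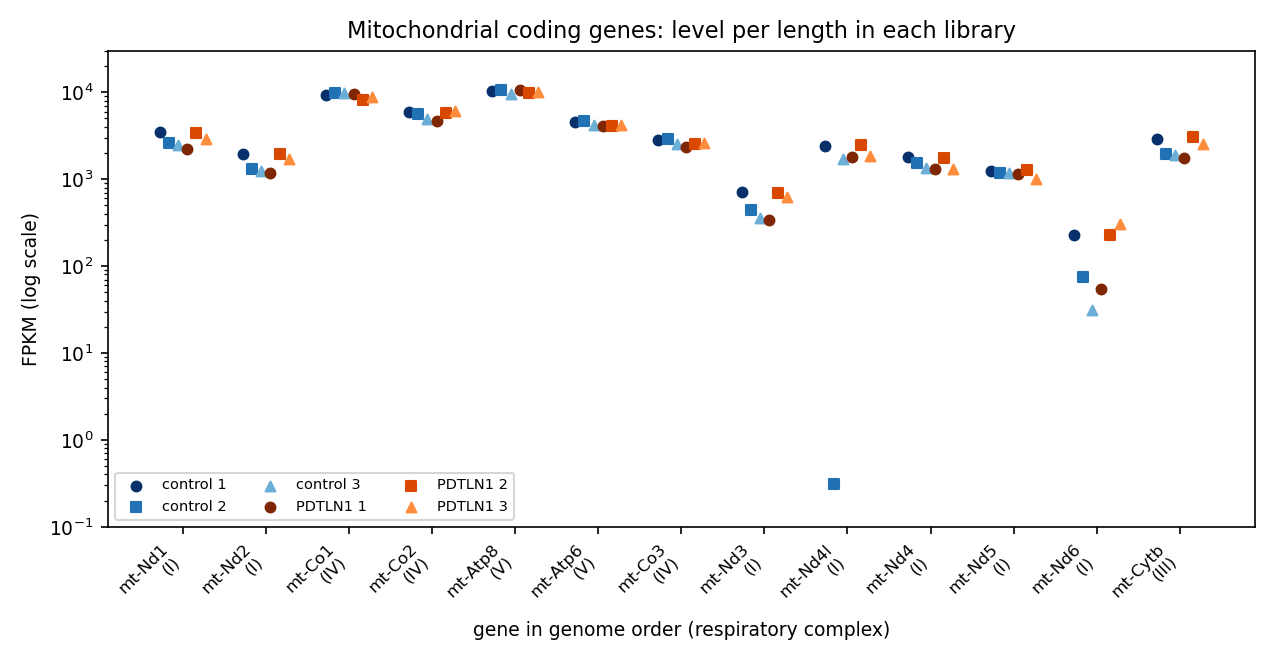
FPKM (log axis) of the 13 mitochondrial coding genes in genome order, with 1 point per library (blue, control; orange to brown, PDTLN1) and the respiratory complex in brackets. mt-Atp8 and mt-Co1 lead, mt-Nd6 is lowest apart from mt-Nd4l in control 2, which stands at 0.315 FPKM.

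The genes differed in how much they varied over the 6 libraries, and those of complexes IV and V are given first. mt-Co1, the catalytic core of cytochrome c oxidase, was at 14234, 15139 and 15019 CPM in controls 1 to 3 and 14808, 12704 and 13516 in PDTLN1 1 to 3. Its lowest values were in PDTLN1 2 and 3, and the group ranges overlapped. mt-Co2, which takes electrons from cytochrome c, was at 4032, 3889 and 3381 CPM in controls and 3202, 3978 and 4127 after PDTLN1, with control 3 and PDTLN1 1 low. mt-Co3, a core subunit without redox centres, was at 2239, 2259.7 and 1994 CPM in controls and 1869.5, 1966 and 2052 after PDTLN1.

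mt-Atp6, which forms part of the proton channel of ATP synthase, was at 3137, 3151 and 2845 CPM in controls and 2773, 2779 and 2848 after PDTLN1. Controls 1 and 2 were high, while control 3 and PDTLN1 3 were nearly equal, so the groups touched. mt-Atp8, a small membrane subunit, was at 2128, 2187 and 1942 CPM in controls and at 2168, 1977 and 2024 CPM after PDTLN1. The SD over all 6 libraries was 5.00% of the mean for mt-Atp8, 5.98% for mt-Atp6, 6.75% for mt-Co1, 7.56% for mt-Co3 and 10.1% for mt-Co2. Little spread was not particular to these complexes, since mt-Nd5 of complex I stood at 8.83%, below mt-Co2. The other complex I genes and mt-Cytb lay between 15.4% (mt-Nd4) and 74.2% (mt-Nd6).

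Other genes split the libraries without regard to the labels. mt-Cytb was at 3284, 2259 and 2166 CPM in controls 1 to 3 and 2003, 3502 and 2919 in PDTLN1 1 to 3. mt-Nd1 was at 3316, 2479 and 2371 CPM in controls and 2157, 3237 and 2796 after PDTLN1. Of the same complex, mt-Nd2 was at 2005, 1352 and 1307 CPM in controls and 1212, 2017 and 1746 after PDTLN1. All of these were high in control 1 and in PDTLN1 2 and 3.

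mt-Nd3 was high in the same 3 libraries with a wider spread, at 246, 153 and 126 CPM in controls and 118, 238 and 216 after PDTLN1. The highest library exceeded the lowest 1.54-fold for mt-Nd1, 1.66-fold for mt-Nd2, 1.75-fold for mt-Cytb and 2.08-fold for mt-Nd3. Control 1 and PDTLN1 2 and 3 were the 3 highest libraries for 7 of the 13 genes (mt-Nd1, mt-Nd2, mt-Co2, mt-Nd3, mt-Nd4l, mt-Nd6 and mt-Cytb), a set of libraries looked at after the values were seen. The same 3 were highest for 14.0% of the 13813 other genes tested. These libraries are those at negative values on the first component given above, and the part of whatever separates them was not tested.

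mt-Nd4 and mt-Nd5, which like mt-Nd2 encode antiporter-like subunits of complex I, had control 2 in place of PDTLN1 3 among their 3 highest libraries. mt-Nd4 was at 2514, 2114 and 1850.2 CPM in controls and 1817, 2437 and 1801 after PDTLN1, so PDTLN1 3 was the lowest library here. mt-Nd5 was at 2298, 2145 and 2140.1 CPM in controls and 2084, 2328 and 1802 after PDTLN1, again with PDTLN1 3 lowest.

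**Figure D2:**
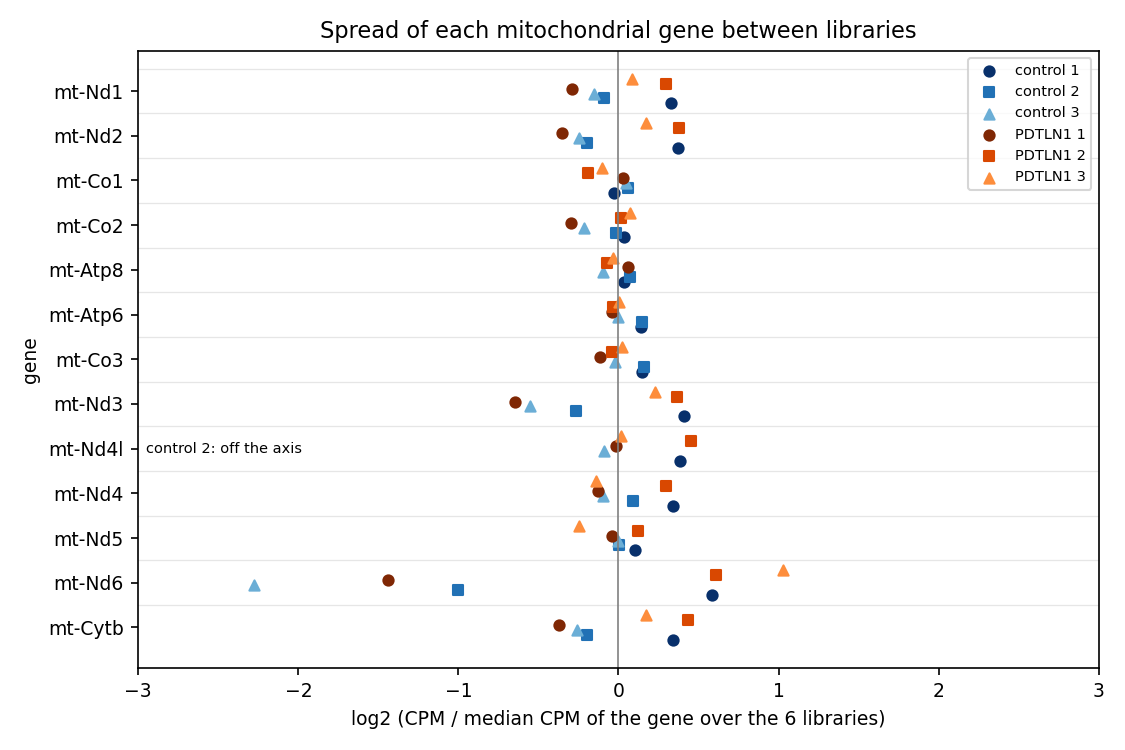
Level of each gene in each library as log2 of its CPM over the gene's median CPM, 1 point per library. Points of control 1 and PDTLN1 2 and 3 lie to the right for mt-Nd1, mt-Nd2, mt-Nd3, mt-Nd6 and mt-Cytb, while those of mt-Atp8, mt-Atp6, mt-Co1 and mt-Co3 stay close to 0; mt-Nd4l in control 2 lies at -12.5 and is not drawn.

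By SD as a percent of the mean, mt-Nd6 varied most, at 74.2% against 52.6% for mt-Nd4l. Apart from mt-Nd4l, mt-Nd6 also had the widest range from highest to lowest library. It encodes a membrane subunit of complex I and was counted 1221, 415 and 180 times in controls 1 to 3 and 297, 1372 and 1864 times in PDTLN1 1 to 3. Scaled, this was 117, 38.9 and 16.1 CPM in controls and 28.7, 119 and 159 CPM after PDTLN1, a 9.87-fold range. Control 1 stood with PDTLN1 2 and 3, and PDTLN1 1 fell among the other controls, so the groups overlapped. Over the same libraries mt-Nd5, which meets it end to end on the opposite strand, moved 1.29-fold. mt-Nd6 counts were 5.10%, 1.81% and 0.754% of those of mt-Nd5 in controls and 1.38%, 5.12% and 8.83% after PDTLN1.

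mt-Nd4l was nearly missing from 1 library. It had 7373, 1 and 5664 counts in controls 1 to 3 and 5545, 8527 and 6400 in PDTLN1 1 to 3. The single count in control 2 has an exact 95% Poisson interval of 0.0253 to 5.57 counts, which covers counting error only. The rate in the other 5 libraries was 6492 times that in control 2, with an exact 95% interval of 1165 to 256439. This interval pools the 5 libraries, so it too leaves out the spread between them, and control 2 was singled out for its low count. The cause of the low count was not tested. The gene on the same mRNA, mt-Nd4, had 22540 counts in control 2, within the 18773 to 28042 of the others. The identical nuclear copy Gm10222 had 943 counts in control 2 and 1690 to 2320 elsewhere, so the copy was not higher in that library. Without control 2 the gene averaged 2044 ± 362 FPKM (SD, n = 5), against 1704 with it.

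As a share of all gene counts, the 13 genes took 4.01%, 3.71% and 3.56% in controls 1 to 3 and 3.46%, 3.80% and 3.67% in PDTLN1 1 to 3. The means were 3.76% ± 0.231 and 3.64% ± 0.171 (SD, n = 3 each), a difference of -0.117 percentage points with an exact two-sided permutation p of 0.50, where 3 against 3 cannot give less than 0.10. Leaving out 1 library moved the difference from -0.217 points without control 3 to 0.0101 without control 1, the only library whose omission changed the sign. It was -0.0255 points without PDTLN1 1 and -0.195 without PDTLN1 2. The sign also depended on the measure, since the difference was 0.0771 points as a share of summed FPKM over all 6 libraries. With the nuclear copies added, the shares were 4.30%, 3.88% and 3.91% in controls and 3.74%, 4.03% and 3.94% after PDTLN1.

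mt-Co1 alone held 33.4% to 42.6% of the mitochondrial counts. Complex IV genes together held 50.9%, 57.3% and 57.2% in controls and 57.2%, 49.0% and 53.9% after PDTLN1. Complex I genes held 27.8%, 22.3% and 23.3% in controls and 22.9%, 29.2% and 24.8% after PDTLN1. mt-Cytb held 8.16%, 6.08% and 6.07%, then 5.76%, 9.21% and 7.99%, and complex V genes 13.1%, 14.4% and 13.4%, then 14.2%, 12.5% and 13.3%. In control 1 and PDTLN1 2 and 3, complex I and mt-Cytb took a larger part and complex IV a smaller one than in the other 3 libraries.

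**Figure D3:**
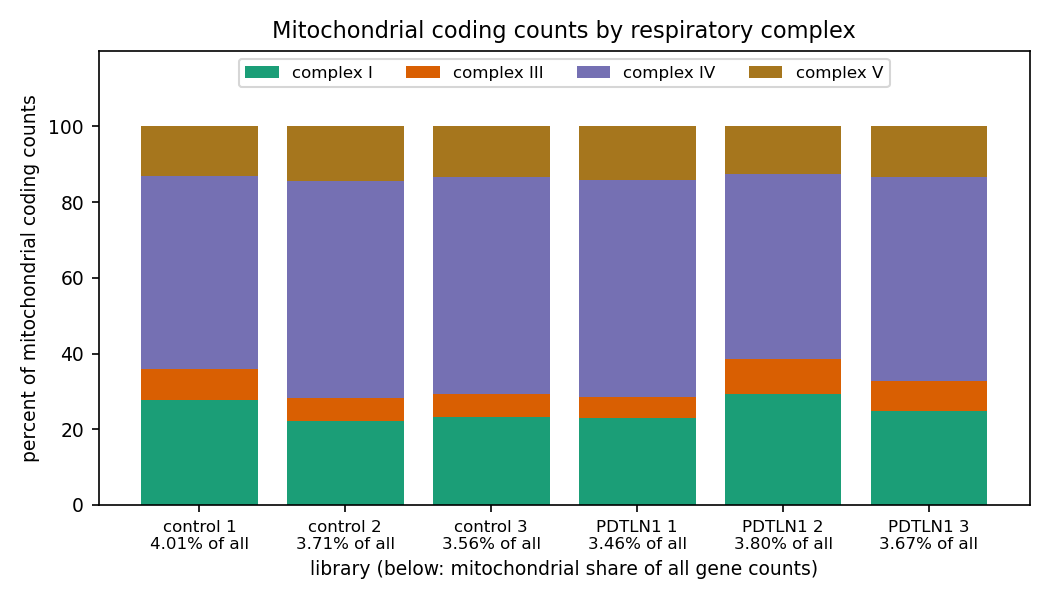
Mitochondrial coding counts of each library divided by respiratory complex, as percent of the library's mitochondrial coding counts (bars from 0, parts add to 100), with the share of all gene counts printed under each bar. Complex IV is the largest part in all 6 libraries, from 49.0% in PDTLN1 2 to 57.3% in control 2.

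Ratios within the genome do not depend on library scaling, and 5 were compared between the groups. The log2 ratio of mt-Nd6 to the 12 plus-strand genes averaged -9.81 ± 1.35 in controls and -8.80 ± 1.27 after PDTLN1 (SD, n = 3 each), a difference of 1.01 with an exact two-sided permutation p of 0.40. The difference was 0.07 for complex I against all coding genes, 0.16 for complex III, -0.05 for complex IV and -0.03 for complex V, with exact permutation p from 0.50 to 0.70. All 5 had a Benjamini-Hochberg adjusted p of 0.70. The differences were smaller than the SD between libraries of a group, and their size moved with single libraries. The mt-Nd6 difference was 0.36 without control 3, 0.53 without PDTLN1 3, 1.71 without control 1 and 1.73 without PDTLN1 1. The complex I difference was 0.00136 without control 2, where mt-Nd4l was nearly missing, and 0.0395 with mt-Nd4l left out of all libraries. The complex III difference, which is mt-Cytb alone, ran from 0.0170 without PDTLN1 2 to 0.36 without PDTLN1 1.

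The comparison of PDTLN1 with control asks which genes the peptide changes, and none of the 13 passed. All 13 had enough counts to be tested, and the quasi-likelihood test of edgeR called 0 at an adjusted p below 0.05, against 3 of 13836 genes in the whole table (0.0217%). At an unadjusted p under 0.05 there were also 0 of 13, against 3.99% of all genes. DESeq2 called 0 of 13, against 0.047% of all genes. The groups did not overlap for 0 of 13 genes, against 9.79% of all genes. Below 0 lay 6 of the 13 log2 fold changes, and their median was 0.00, as it was over all genes tested.

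The smallest p-values belonged to genes with little spread and slightly lower means after PDTLN1. mt-Co3 averaged 2164 ± 148 CPM in controls and 1962 ± 91.3 after PDTLN1 (SD, n = 3 each), which is -0.14 on the log2 scale (SE 0.06, edgeR adjusted p = 0.989). mt-Atp6 averaged 3044 ± 173 and 2800.0 ± 41.7 CPM (log2 fold change -0.12), and mt-Co1 14797 ± 491 and 13676 ± 1061 CPM (-0.11). Their unadjusted edgeR p-values were 0.0571, 0.0599 and 0.119. With the nuclear copies added, the log2 fold changes of mt-Co3, mt-Atp6 and mt-Co1 were -0.096, -0.091 and -0.112. The unadjusted edgeR p-values were then 0.113, 0.121 and 0.143. The mt-Co1 value ran from -0.18 without PDTLN1 1 to -0.06 without PDTLN1 2. mt-Co2 stood at 0.00, mt-Atp8 at -0.02, mt-Nd4 at -0.10 and mt-Nd5 at -0.08, with SEs of 0.06 to 0.15.

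For the genes that split the libraries, the log2 fold change over all 6 libraries was smaller than its SE. mt-Cytb averaged 2569.6 ± 620.0 CPM in controls and 2808 ± 756 after PDTLN1, 0.13 on the log2 scale (SE 0.27). mt-Nd1, mt-Nd2 and mt-Nd3 stood at log2 fold changes 0.00 (SE 0.19), 0.09 (SE 0.26) and 0.13 (SE 0.38). mt-Nd6 averaged 57.4 ± 53.0 and 102 ± 66.8 CPM, 0.84 on the log2 scale (SE 0.99, edgeR adjusted p = 0.989). That value was 0.37 without PDTLN1 3, 0.40 without control 3, 1.28 without PDTLN1 1 and 1.90 without control 1. For mt-Nd4l it was 0.59 (SE 1.61), and 0.00 (SE 0.20) without control 2.

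A comparison without both libraries numbered 1, tried since earlier results of these data set them apart from their groups, gave other values. It left control 2 and 3 against PDTLN1 2 and 3, groups that lie on opposite sides of the first component. In it edgeR called 91 of 13949 genes (0.652%), among them 2 of the 13, mt-Nd2 and mt-Nd3, both higher after PDTLN1, with log2 fold changes of 0.50 and 0.70 and adjusted p of 0.0328 and 0.0402. mt-Cytb, at 0.54, had an edgeR adjusted p of 0.0505, and mt-Nd6, at 2.34, one of 0.271. In these 4 libraries treatment and the first component cannot be told apart.

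**Figure D4:**
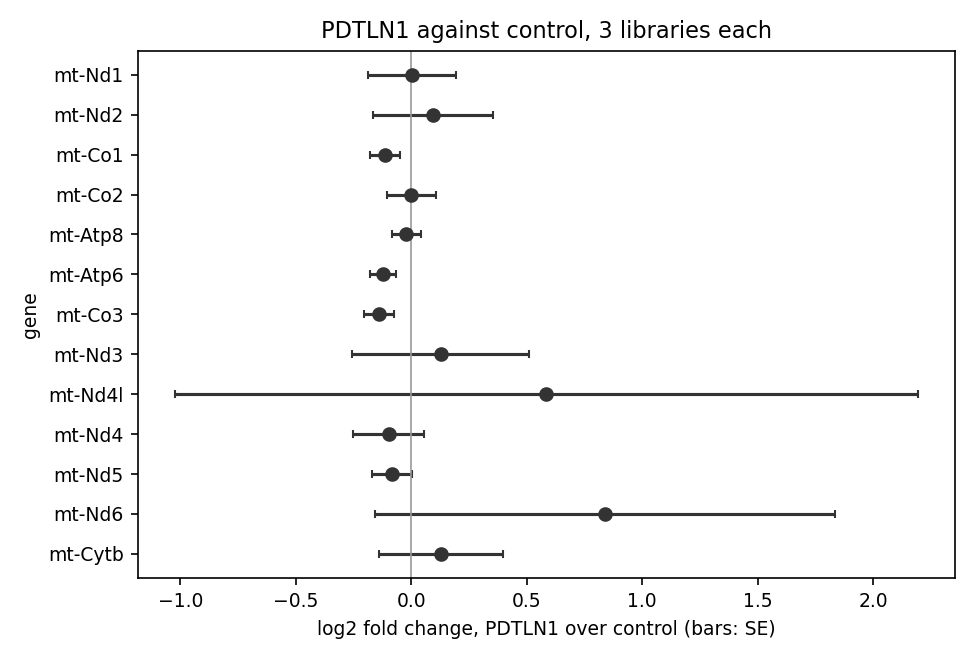
log2 fold change of each gene, PDTLN1 over control, from edgeR with 3 libraries a group; bars are 1 SE. The bars of mt-Nd4l and mt-Nd6 are the widest, and the means of mt-Co1, mt-Atp6 and mt-Co3 lie between -0.11 and -0.14 with short bars.

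Counts placed on the chromosome 1 block gave each library its own proportion. The 7 copies held 28682, 16564 and 37653 counts in controls 1 to 3 and 27434, 25382 and 29811 in PDTLN1 1 to 3. Of the counts on the 7 genes and their copies, 9.22%, 5.50% and 11.6% were on the copies in controls and 9.56%, 8.15% and 9.21% after PDTLN1, so control 2 was lowest and control 3 highest. Gm10925, the copy of mt-Atp6, took 18.8%, 12.8% and 23.5% of its pair in controls and 18.9%, 19.6% and 21.7% after PDTLN1. Gm28437 took 10.8% to 23.0% of the mt-Co3 pair, Gm28439 8.01% to 16.8% of the mt-Nd4 pair, and Gm28438 7.77% to 21.9% of the mt-Nd3 pair.

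Gm28661, the copy of mt-Co2, was apart from this order. It took 14.6%, 8.08% and 19.3% of its pair in controls and 16.9%, 7.96% and 7.20% after PDTLN1. With the copy added, mt-Co2 ran from 3852 to 4721 CPM, and its log2 fold change was -0.06. Gm29216 took 1.23% to 3.17% of the mt-Co1 pair. Summing every gene with its copies left 0 of 13 genes called by edgeR, a choice made after the data were seen.

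**Figure D5:**
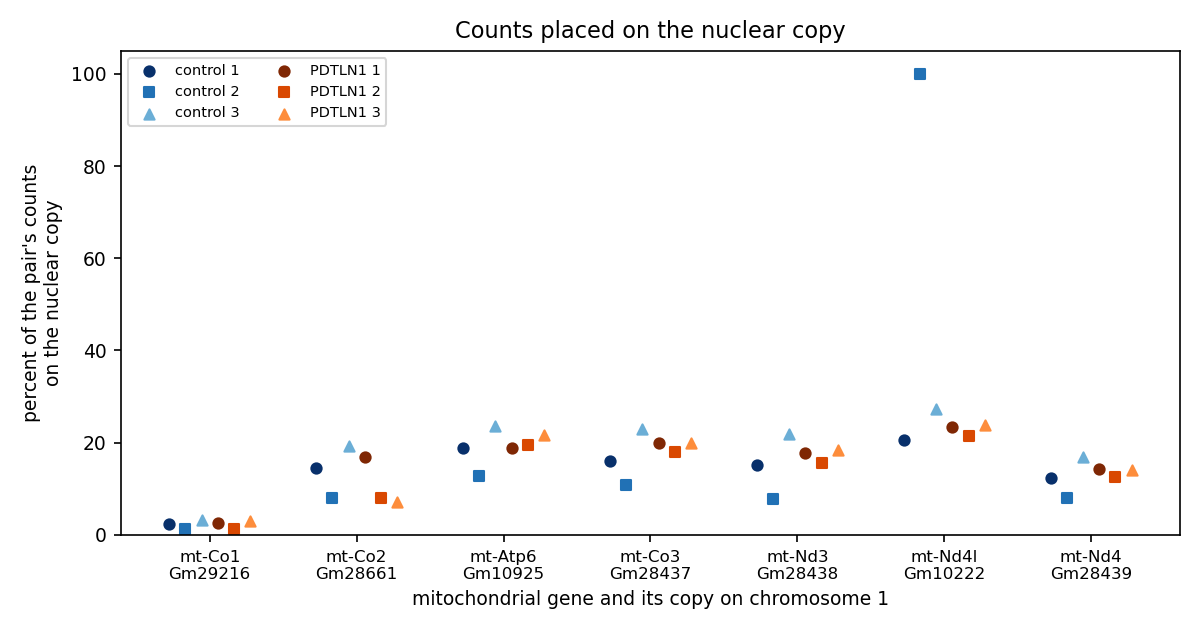
Percent of the counts of each mitochondrial gene and its chromosome 1 copy that were placed on the copy, 1 point per library. Control 2 lies lowest for mt-Atp6, mt-Co3, mt-Nd3 and mt-Nd4 and at 99.9% for mt-Nd4l, where the mitochondrial gene had 1 count.

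Nuclear genes that make, cut, translate or partner these RNAs gave no calls. Of 95 names in 6 lists, 88 were tested and 0 passed edgeR's adjusted threshold, with 1 at an unadjusted p under 0.05 and a median log2 fold change of -0.02. The groups did not overlap for 7 of the 88 (7.95%), against 9.79% of all genes: Tfb1m, Mterf2, Grsf1, Gfm1, Ndufs8, Ndufs3 and Uqcrfs1. For transcription of the genome, 7 of 10 tested genes lay above 0. Tfb1m, an rRNA methyltransferase related to the transcription factor Tfb2m, was at 29.9, 25.1 and 25.8 CPM in controls and 31.6, 32.0 and 31.1 after PDTLN1. Its log2 fold change was 0.23, with an edgeR adjusted p of 0.989. Polrmt, the mitochondrial RNA polymerase, and Mterf2 and Mterf4, of the termination factor family, had log2 fold changes of -0.10, -0.18 and -0.13.

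For processing and decay of the RNAs, 14 of 29 tested genes lay above 0, with a median of 0.00. Grsf1, an RNA-binding protein of mitochondrial RNA granules, averaged 499 ± 23.0 CPM in controls and 545 ± 22.2 after PDTLN1 (SD, n = 3 each), 0.13 on the log2 scale. Trmt10c, a subunit of the enzyme that cuts tRNAs at their 5′ ends, was at -0.21 and Mto1, a tRNA modification enzyme, at -0.13. Slirp, which stabilises the mRNAs together with Lrpprc, was at 0.40, resting on PDTLN1 3 at 32.8 CPM against 15.7 to 21.3 in the other libraries. None of these passed.

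Of 12 replication genes 5 lay above 0. Lig3 (the DNA ligase) stood at 0.12, Tk2 (the mitochondrial thymidine kinase) at 0.13, Peo1 (the helicase Twinkle) at -0.07 and Rnaseh1 (which removes RNA from RNA-DNA hybrids) at -0.08. Of 12 translation factors 3 lay above 0. The release factors Mtrf1l and Mtrf1 stood at -0.25 and -0.18, and the elongation and ribosome-recycling factors Gfm1 and Gfm2 at -0.06 and 0.09. Of 6 tested regulators of mitochondrial biogenesis 5 lay above 0. Among them Pprc1, a coactivator related to PGC-1, was at 178, 113 and 121 CPM in controls and 112, 178 and 178 after PDTLN1, high in the same libraries as mt-Nd1 and mt-Cytb. Its log2 fold change was 0.19 (SE 0.26), and those of the transcription factors Esrra, Yy1 and Gabpa were -0.09, 0.04 and 0.01.

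Nuclear core subunits of the same complexes lay below 0 for 15 of 19 tested genes, with a median log2 fold change of -0.05, where 50.3% of all genes tested lay below 0. Ndufs8, an iron-sulfur subunit of complex I, was at 33.0, 33.8 and 33.3 CPM in controls and 29.2, 27.5 and 27.8 after PDTLN1. Its log2 fold change was -0.25 (SE 0.09; edgeR unadjusted p = 0.0219, adjusted p = 0.989). Ndufs3, another complex I subunit, stood at 0.17, Cox5b of complex IV at -0.18 and Uqcrfs1, the Rieske protein of complex III, at -0.12, none past the threshold.

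The nuclear genes most like the summed mitochondrial counts over the 6 libraries, among 9916 with a mean of at least 10 CPM, were Bri3bp, Ranbp1, Zfp36l2, Med8 and Mplkip. Their log2 CPM had Pearson correlations of 0.995, 0.987, 0.982, 0.981 and 0.981 with the log2 summed CPM, taken from the top of 9916 on 6 points and therefore a description only. Bri3bp, for one, was at 87.4, 73.0 and 68.7 CPM in controls and 64.0, 78.2 and 72.5 after PDTLN1. The summed level itself was highest in control 1 and lowest in PDTLN1 1.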

How the data were processed

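RNA was measured in 6 P19 libraries; the labels' protocols name the Illumina TruSeq RNA kit. The count deposited by the authors is a whole number of reads per gene and library, per the file headers and values. The FPKM deposited by the authors, per the file headers, gave for the 13 genes the annotated gene length when set against the counts. Bowtie 0.12.2 and the builds mm8 and mm9 are named without a role, per the submitters' processing notes. Which counter was used, with what strand setting and what handling of reads with several matches, is not given in the sources used here. Positions of the 13 genes equalled those of GENCODE M21 (GRCm38).

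Counts were fitted over the whole table with edgeR 4.0.16 in R 4.3.3 (filterByExpr, TMM, glmQLFit with robust estimation, glmQLFTest, Benjamini-Hochberg over 13836 genes), without the replicate number in the model. CPM use TMM-scaled library sizes. The SE is the log2 fold change over the square root of F. Shares and log2 ratios were compared by exact two-sided permutation tests over libraries (SciPy 1.17.1). Nuclear copies were found with blastn 2.17.0 between transcripts (at least 200 bases at 90% identity) in place of a genome alignment; 11 were in the table, and each was paired with 1 gene. Named are all 13 genes, up to 4 genes per nuclear list by p, the copies with most counts and the 5 genes most like the summed level (pseudocount 0.5 CPM); Gm10222 and Gm28438 were named after their values were seen. Alternatives were the DESeq2 1.42.0 Wald test, other scalings and filters, nuclear-only scaling, the replicate block, leaving out libraries and, chosen after seeing the data, summing copies and leaving out mt-Nd4l. The fit was checked on simulated data. The members and lists were chosen with earlier results of these data known.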

Additional observations from a re-analysis of the deposited data

How the results depend on the processing

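No mitochondrial gene was called in any alternative except the comparison without both libraries numbered 1, which called 2 (mt-Nd2 and mt-Nd3). Over the whole table edgeR called 3 genes, against 91 in that comparison, 10 with DESeq2, 8 with no filter beyond 1 count, 1 with the replicate block and 2 to 13 without 1 library. No nuclear list gene was called with DESeq2, with the replicate block or without any 1 library. Of 195 values for single mitochondrial genes under 15 alternatives, 19 changed sign, in 8 genes; the cause was not tested. Leaving out 1 library moved log2 fold changes between -0.14 and 0.17 for mt-Nd1, -0.0726 and 0.318 for mt-Nd2, -0.0715 and 0.105 for mt-Co2, -0.0690 and 0.0162 for mt-Atp8, -0.0640 and 0.452 for mt-Nd3, -0.256 and 0.0259 for mt-Nd4, -0.176 and 0.00816 for mt-Nd5 and -0.0623 and 0.344 for mt-Cytb. Without a change of sign it ran from 0.37 to 1.90 for mt-Nd6, 0.00233 to 1.26 for mt-Nd4l, -0.18 to -0.06 for mt-Co1, -0.17 to -0.09 for mt-Atp6 and -0.20 to -0.11 for mt-Co3. mt-Co2 was at -0.00396 with the replicate block and -0.0584 with copies added, and mt-Nd4 at 0.0943 without the libraries numbered 1. The difference in coding share was 0.0771 points as a share of summed FPKM, 0.101 without the libraries numbered 1, and -0.217 to 0.0101 without 1 library. The log2 ratio differences ran from -0.0328 to 0.162 for complex I, 0.0170 to 0.36 for complex III, -0.104 to 0.0117 for complex IV, -0.0758 to 0.0160 for complex V and 0.36 to 1.73 for mt-Nd6 without 1 library. Without the libraries numbered 1 they were 0.24, 0.50, -0.15, -0.10 and 2.43 in that order, and the complex I value was 0.15 from summed FPKM. With the replicate block 0 of 13 genes were called, and mt-Nd4l was at 1.37; the share difference of -0.117 is the same under the block by arithmetic and tests nothing. Deviations from the group means were not shared within a number (r across genes of -0.359, -0.141 and -0.103 for numbers 1, 2 and 3), so the numbers were not treated as pairs. Alternatives for rRNA and tRNA were not run, since no row beginning with mt- was of these classes. Lengths from the annotation gave the same order of levels as FPKM by arithmetic, since the FPKM rest on those lengths, and this tests nothing.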
